A study of Mus musculus with 2 samples.

Results

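The cells described here are GABAergic neurons from dissected mouse arcuate nucleus and median eminence tissue. Where each cell lay in or near these regions was not measured. The cells held no UMI (a counted RNA molecule) of 8 genes that name other neurons of this tissue. A count of 0 does not show that a gene is not expressed, and peptide genes outside the rule, such as Sst, Cartpt and Pomc, were found in members. They were taken from a Drop-seq count table of 2 libraries, 1 per genotype. A barcode was a member when it held at least 500 genes, at least 3 of the 5 neuron genes Snap25, Syt1, Stmn2, Meg3 and Snhg11, and at least 2 of the 3 GABA genes Slc32a1, Gad1 and Gad2, with Slc17a6, Agrp, Ghrh, Th, Vip, Nms, Prok2 and Kiss1 all at 0. By this rule 343 cells were members, 151 from WT and 192 from Irx5KO, among 3801 cells (1829 WT and 1972 Irx5KO) and 1545 neurons (629 and 916).

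Drop-seq isolates dissociated cells in droplets and counts each captured RNA molecule once by its unique molecular identifier (UMI). Both groups were CD-1 mice aged 7 to 8 weeks. The WT library pooled tissue of 7 mice, and the Irx5KO library pooled tissue of 6 mice lacking both copies of Irx5, a homeobox transcription factor gene, in the whole body. With 1 pooled library per genotype there is no replicate of a genotype, so a difference between them cannot be told apart from a difference between 2 preparations. The medians were 3181 UMIs per WT member and 3520.5 per Irx5KO member, and the members' summed depths were 563483 and 831474 UMIs. No cell barcode was shared by the libraries among the members.

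GABA is the main inhibitory transmitter of the brain. It is made from glutamate by the enzymes encoded by Gad1 and Gad2 and loaded into synaptic vesicles by the transporter encoded by Slc32a1, whereas Slc17a6 encodes the vesicular transporter of most hypothalamic glutamatergic neurons. Forebrain GABAergic neurons are specified by homeobox factors of the Dlx family, and hypothalamic GABAergic neurons often release peptides as well.

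The genes of the rule are given as a description only. Levels are given as UMIs per 1000000 UMIs of the summed cells (CPM). Members held Gad2 at 724 CPM in WT (95% Poisson interval 656 to 798) and 894 in Irx5KO (830 to 960). Gad1 stood at 417 and 451, and Slc32a1 at 288 (245 to 335) and 333 (295 to 375). Of the members, 215 held 2 of the 3 GABA genes and 128 held all 3. The rule left out 170 of 513 neurons with 2 or more GABA genes because a named gene was above 0. Neurons with 1 GABA gene that otherwise met the rule lay just outside it, and numbered 103 in WT and 131 in Irx5KO. A UMI of Dlx1, Dlx2, Dlx5 or Dlx6 was found in 45.6% of them in WT and 30.5% in Irx5KO, against 57.4% and 57.0% of members with 2 GABA genes and 64.0% and 74.4% of members with 3. Median depth differed across these classes too, from 1976 UMIs just outside the rule to 4178.5 with all 3 genes in WT and from 1987 to 5463 in Irx5KO, and its part in the Dlx shares was not tested.

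Members made up 24.0% of neurons in WT (exact Clopper-Pearson 95% interval 20.7 to 27.5) and 21.0% in Irx5KO (18.4 to 23.7). The Irx5KO share over the WT share was 0.873 (0.702 to 1.09). Of all cells they made up 8.26% and 9.74%, a ratio of 1.18 (0.948 to 1.47). Both intervals include a ratio of 1, and they cover counting error only. Neurons as a whole took 34.4% of the WT cells and 46.5% of those of Irx5KO, so the denominators differ.

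The Dlx factors were found in the members and in other GABAergic neurons, and Dlx6 was the check of the name outside the rule. Dlx6 was found at 88.7 CPM in WT members (65.9 to 117) and 96.2 in Irx5KO members (76.3 to 120), in 37 and 55 cells. Dlx1 stood at 140 (111 to 175) and 159 (133 to 188), Dlx2 at 55.0 and 54.1, and Dlx5 at 58.6 and 43.3. At least 1 of these 4 genes was found in 59.6% of WT members and 64.1% of Irx5KO members. In GABAergic neurons left out for a named gene other than Slc17a6, the shares were 60.0% and 45.4%. The share was 0.934% and 1.72% in non-neurons, whose median depths were 1367 and 1256 UMIs. After each cell was thinned to 1000 UMIs, the members' shares were 35.5% and 26.9%, against 0.418% and 0.967% in non-neurons. The thinned shares in the GABAergic neurons with a named gene were 25.6% and 23.8%. The 4 genes lie in pairs on GRCm38: Dlx1 at chr2:71528113-71533981 on the plus strand beside Dlx2 at chr2:71543408-71546754 on the minus strand, and Dlx6 at chr6:6863334-6868568 on the plus strand beside Dlx5 at chr6:6877805-6882085 on the minus strand. Annotated antisense genes overlap Dlx1 and Dlx6, and the sources used here do not say whether counting used strand, so those 2 counts may hold antisense reads.

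Glutamatergic neurons of the same libraries, defined by Slc17a6 above 0 and all 3 GABA genes and the other named genes at 0, were the first comparison. They numbered 118 in WT and 132 in Irx5KO, with median depths of 2067.5 and 2436 UMIs. The genes of the rule were left out of the test results. UMIs were summed per kind of neuron and library, and the 4 sums were fitted with edgeR's quasi-likelihood test with the library as a block, which leaves 1 residual degree of freedom. The p-values therefore speak of the spread between these 2 libraries, pooled over genes, and not of that between animals. The fit gave a gene's own spread no weight here (infinite prior degrees of freedom), so a small p-value does not show agreement between the libraries. Of 8608 genes tested, 72 were higher in members (0.836%) and 125 were lower (1.45%) at a Benjamini-Hochberg adjusted p under 0.05, or 2.29% in either direction. Of these, 191 also passed with robust moderation of the spread and 22 with DESeq2. The median log2 difference over all genes was 0.013.

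All 4 of these Dlx genes were higher in members, against the 0.836% of all genes called in that direction. No UMI of Dlx1, Dlx2, Dlx5 or Dlx6 was found in the 250 glutamatergic neurons, which allows a share of up to 1.20% of cells with a UMI. Against a floor of 3 UMIs over both libraries of glutamatergic neurons, Dlx1 was at least 39.3-fold higher, Dlx6 at least 24.2-fold, Dlx2 at least 14.2-fold and Dlx5 at least 12.9-fold. Their adjusted p-values by edgeR ran from 2.84e-29 for Dlx1 to 2.38e-10 for Dlx5. By DESeq2 with the same block, 2 of the 4 passed, Dlx6 (adjusted p 0.00233) and Dlx2 (0.0465).

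**Figure D1:**
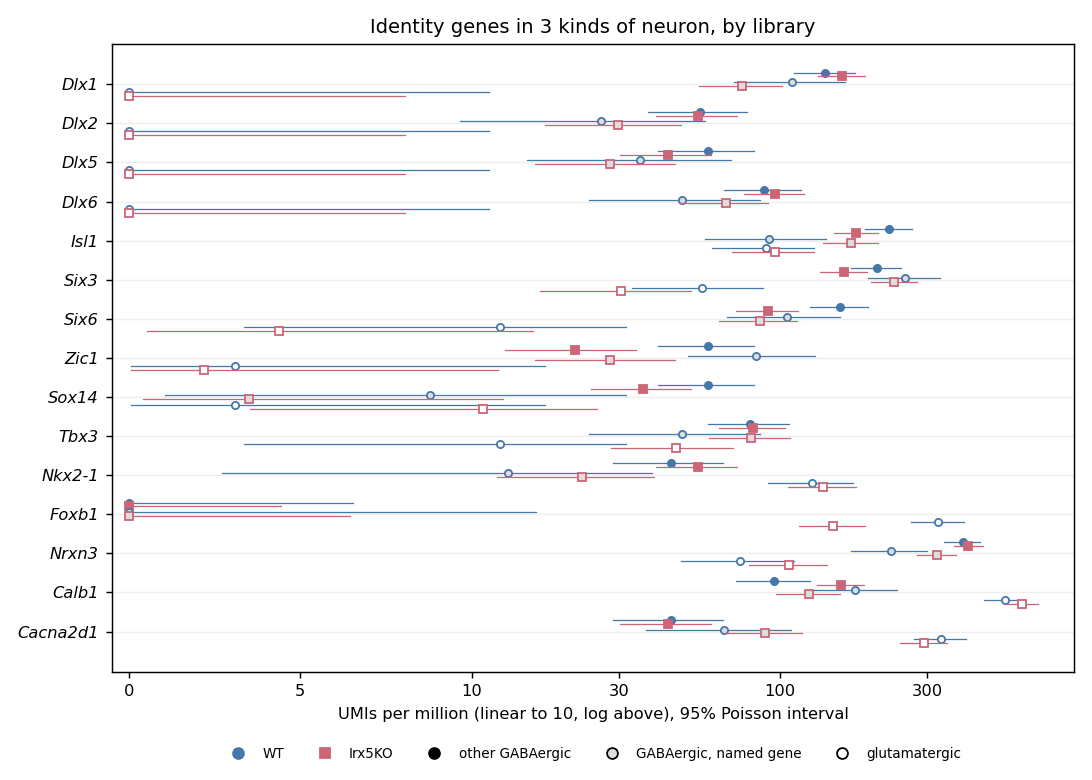
CPM of identity genes on a scale that is linear to 10 and logarithmic above, in members (filled), GABAergic neurons with a named gene (grey fill) and glutamatergic neurons (open), with WT as circles, Irx5KO as squares and lines for 95% Poisson intervals. The Dlx genes sit at 0 in glutamatergic neurons of both libraries, and Foxb1 sits at 0 in members of both.

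Of 33 tested regional transcription factors, 6 were higher and 4 lower in members, against 0.836% and 1.45% of all genes, and 23 did not pass. The list's median log2 difference was -0.10. Six6, a homeobox factor of the ventral forebrain and eye, stood at 156 CPM in WT members and 91.4 in Irx5KO members, against 12.4 and 4.37 in glutamatergic neurons. The log2 difference of Six6 was 3.92 ± 0.45 (SE; edgeR adjusted p 6.91e-16). Its relative Six3 differed by 2.14 ± 0.26, from 206 and 161 CPM against 55.7 and 30.6. Zic1, a zinc finger factor that overlaps an antisense gene, was at 58.6 and 21.6 against 3.10 and 2.19. Sox14, an HMG-box factor known from GABAergic cells of the diencephalon, was at 58.6 and 36.1 against 3.10 and 10.9. Isl1 and Tbx3, both known from the arcuate nucleus, were the other higher factors, with log2 differences of 1.09 ± 0.21 and 1.39 ± 0.35. In each of these 6 genes both libraries had the higher level in members. Six6 and Six3 also passed with DESeq2.

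The lower factors included Foxb1, Nkx2-1 and Tcf4. Foxb1, a forkhead factor of the mammillary region, had no UMI in the 343 members and 105 and 68 UMIs in the glutamatergic neurons of WT and Irx5KO, so it was at least 103-fold lower against a floor of 3 UMIs over both libraries. Nkx2-1, which patterns the ventral hypothalamus, was present in members at 44.4 and 54.1 CPM and at 127 and 138 in the glutamatergic neurons. Lhx6, Nr5a1, Sim1 and Meis2, factors that mark other GABAergic or hypothalamic populations, had no UMI in any member.

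Of the listed peptide genes, Cartpt (2648 UMIs) and Sst (2587) had the most UMIs in members, and their promoters are shown because both carry the cAMP response element TGACGTCA before the start of the gene in RefSeq. The 30 bases around it, on GRCm38.p6 with the element in capitals, are at chr16:23890874-23890903 (minus strand) for Sst and at chr13:99900777-99900806 (minus strand) for Cartpt. The element begins 48 bases before the RefSeq start of Sst and 112 before that of Cartpt. The annotations differ here: the GENCODE genes Sst (chr16:23889573-23890958) and Cartpt (chr13:99898489-99901091), both on the minus strand, begin further upstream, so both stretches lie inside them.
Sst: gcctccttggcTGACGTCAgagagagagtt
Cartpt: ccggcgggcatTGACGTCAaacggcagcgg
The element is its own reverse complement, so 1 search covers both strands. It was found in 508 of 32851 promoter windows of 250 bases, or 1.55%. Binding was not measured here.

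Genes of the peptide list differed in both directions. The list also holds genes of other secreted proteins, such as Cbln2, Cbln4, Nxph4 and Bdnf. Of 23 tested, 9 were higher and 8 lower, against 0.836% and 1.45% of all genes, with a list median of 0.54. Cbln4 was among the higher genes, and Cbln2, Nxph4 and Bdnf were among the lower. With DESeq2, 2 of the 23 were higher and 3 lower. Levels of some peptides rested on a handful of very rich cells, so values without the richest cell are given for Cartpt, Sst and Pomc. Cartpt, the precursor of an appetite-related peptide, had 1674 UMIs in 46 WT members and 974 in 74 Irx5KO members, or 2971 and 1171 CPM, against 774 and 385 in glutamatergic neurons. The richest cell held 25.9% and 15.9% of the Cartpt UMIs. The log2 difference was 1.79 ± 0.10 (edgeR adjusted p 5.81e-70), and the level was 3.31-fold higher in WT and 3.32-fold higher in Irx5KO after the richest cell of each kind was left out. Penk, the enkephalin precursor, stood at 257 and 96.2 CPM in members against 61.9 and 15.3. Trh, the thyrotropin-releasing hormone precursor, stood at 115 and 74.6 against 21.7 and 4.37. Tac1, which encodes substance P, was at 359 and 504 against 214 and 201, a log2 difference of 1.08 ± 0.15. Pnoc and Cbln4 differed by 1.60 ± 0.35 and 1.82 ± 0.40.

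Sst, the somatostatin precursor, was called higher (log2 difference 1.78, edgeR adjusted p 1.08e-40), and the call was lost with DESeq2 and with robust moderation of the spread. Members had 521 Sst UMIs in 19 WT cells and 2066 in 39 Irx5KO cells, or 925 and 2485 CPM, against 1601 and 56.8 CPM in glutamatergic neurons. The WT members were thus lower than the WT glutamatergic neurons and the Irx5KO members were higher. In WT, 1 glutamatergic cell held 509 of the Sst UMIs, 98.5% of that kind's total, and without the richest cell of each kind Sst was 24.2-fold higher in WT members and 25.2-fold higher in Irx5KO members. With robust moderation, an alternative added after seeing the data, the adjusted p was 0.959. The richest member held 35.1% of the Sst UMIs in WT and 49.7% in Irx5KO. Pomc, the melanocortin precursor, was called higher in members, but 1 cell held 70.1% of its UMIs in WT and 85.8% in Irx5KO, and without the richest cells its ratio was 3.52 in WT and 0.536 in Irx5KO.

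The lower genes of the peptide list included Pdyn, the dynorphin precursor, at 10.7 and 19.2 CPM in members against 180 and 334 (log2 difference -4.08 ± 0.28). Adcyap1, which encodes PACAP, had 1 UMI in all members against 44 and 47 in the glutamatergic neurons. Bdnf, a neurotrophin gene, was at 5.32 and 7.22 against 118 and 76.5. Nxph4, a neurexin ligand gene, had no UMI in members and was at least 33.4-fold lower against the same floor. Cck, the cholecystokinin precursor, was at 106.5 and 18.04 CPM against 430 and 518 (log2 difference -3.13), and without the richest cell of each kind its ratio was 0.196 in WT and 0.0331 in Irx5KO. Avp and Oxt, the vasopressin and oxytocin precursors, had log2 differences of -1.08 and -2.86, but both were higher in Irx5KO members than in the Irx5KO glutamatergic neurons. The calls of all 3 were lost with DESeq2, with no replicate block and with robust moderation, where the adjusted p-values for Cck, Avp and Oxt were 0.756, 0.978 and 0.900.

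**Figure D2:**
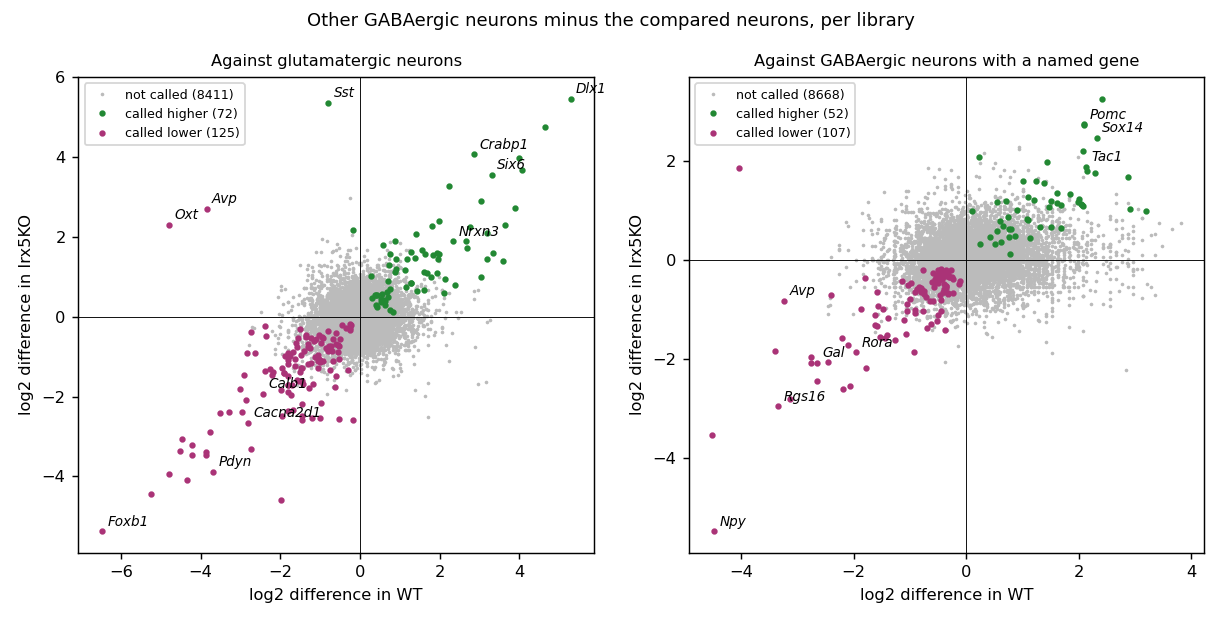
Each point is a gene placed by its log2 difference in WT (x axis) and in Irx5KO (y axis), members minus glutamatergic neurons on the left and members minus GABAergic neurons with a named gene on the right; green and purple points passed the edgeR test. Sst, Avp and Oxt lie at upper left in the plot against glutamatergic neurons, lower in WT members and higher in Irx5KO members.

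Among genes of the synapse, 2 of 24 tested release genes were higher and none lower (list median -0.04). Of all genes, 0.836% were higher and 1.45% lower, the background also for the other counts of this paragraph. Nrxn3, a presynaptic adhesion molecule, was at 390 (340 to 446) CPM in WT members and 408 (366 to 454) in Irx5KO members, against 74.3 and 107 in glutamatergic neurons, and its log2 difference of 2.12 ± 0.18 (edgeR adjusted p 2.57e-29) also passed with DESeq2 (2.24e-06). Rab3c, a vesicle GTPase, differed by 0.77 ± 0.19. Of 26 tested ion channel genes, 3 were lower and none higher, and the list median was -0.26. Cacna2d1, an auxiliary calcium channel subunit that binds gabapentin, was at 44.4 and 43.3 in members against 331 and 293 (log2 difference -2.80 ± 0.22), and Kcnq3 and Kcna2, potassium channel subunits, had log2 differences of -2.33 and -1.27. The calcium buffer gene Calb1 was at 95.8 and 158 against 536 and 608 (log2 difference -2.16 ± 0.15), and Pcp4 at 1258 and 812 against 2158 and 1353. Of 16 GABA receptor genes, Gabra5 and Gabrb1 were lower and none was higher. None of 16 glutamate receptor genes passed by edgeR or DESeq2 (list median -0.31). None of 7 tested GABA transport and breakdown genes outside the rule passed by either tool. Of 11 tested genes on the list of granins and prohormone processing, Pcsk2 was lower. The only higher gene on that list was Scgn, which encodes a calcium-binding protein and not a granin.

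Higher genes outside these lists included Six3os1, a transcript antisense to Six3, and Crabp1, which encodes a retinoic acid binding protein. Crabp1 had 218 UMIs in WT members and 446 in Irx5KO members, 387 and 536 CPM, against 49.6 and 28.4 in glutamatergic neurons (log2 difference 3.65 ± 0.21, edgeR adjusted p 7.18e-63, DESeq2 3.17e-13). In WT, 1 glutamatergic cell held 87.5% of the Crabp1 UMIs of its kind, and without the richest cell of each kind the ratio was 46.0 in WT and 18.6 in Irx5KO. Ddc, which encodes the decarboxylase of dopamine and serotonin synthesis, was higher at 128 and 121 CPM against 37.2 and 54.7 (log2 difference 1.41 ± 0.29), in members that hold no Th by the rule. Slc18a2, the vesicular monoamine transporter gene, was found in 9 WT and 20 Irx5KO members and was too low to be tested against glutamatergic neurons. The lower genes outside the lists included Nrn1, with no UMI in members, Ctxn3, Cpne9 at 12.4 and 9.62 against 229 and 144, and Stxbp6.

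The second comparison was with GABAergic neurons that meet the same rule except for 1 or more of the named genes Agrp, Ghrh, Th, Vip, Nms, Prok2 and Kiss1. There were 45 in WT and 108 in Irx5KO, with median depths of 4170 and 4388 UMIs. Of 8827 genes tested in the same way, 52 were higher in members (0.589%) and 107 were lower (1.21%), or 1.8% in either direction, with a median log2 difference of -0.010. Of these, 156 also passed with robust moderation and 18 with DESeq2. A gene's own spread between the libraries had little weight here too (385 prior degrees of freedom). Genes that accompany the named genes in the same cells, such as Npy with Agrp, differ through the rule. Which of the lower genes do so was not tested, so the lower genes and their counts are a description and support nothing. Npy stood at 74.5 and 96.2 CPM in members against 1751 and 4413. Without the members that held 3 markers of another cell class, the same test called 4 genes higher and 24 lower.

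The 4 Dlx genes did not pass in this comparison, with log2 differences of 0.74 ± 0.24 for Dlx1 (edgeR adjusted p 0.0870) and 0.59 ± 0.29 for Dlx6 (0.436), and none passed with DESeq2. Among 33 tested regional factors, Sox14 and Tcf7l2 were higher, against 0.589% of all genes, and Otp and Rora lower, against 1.21%. Neither Sox14 nor Tcf7l2 passed with DESeq2. Sox14 had 33 and 30 UMIs in members and 2 in the named neurons of each library (log2 difference 2.97 ± 0.61, adjusted p 0.000296). Rora, a nuclear receptor of the clock, was at 81.6 and 43.3 CPM against 329 and 166.

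Of 20 tested peptide genes, 6 were higher than in the named neurons, and the 5 lower ones include Npy. Of all genes, 0.589% were higher and 1.21% lower. With DESeq2, 3 of the 20 were higher and 2 lower. Tac1 was at 359 and 504 CPM against 79.0 and 133 (log2 difference 1.93 ± 0.17, edgeR adjusted p 1.52e-22, DESeq2 9.13e-06). In WT, 1 named neuron held 94.4% of the Tac1 UMIs of its kind, and without the richest cells the Tac1 ratio was 59.6 in WT and 5.39 in Irx5KO. Nts, the neurotensin precursor, differed by 3.07 ± 0.61 on 28 and 37 UMIs in members. The richest member held 39.3% of the Nts UMIs in WT and 43.2% in Irx5KO. Only 2 members of each library held 5 or more Nts UMIs. Gal, the galanin precursor, was at 208 and 372 against 1325 and 1574. Vgf and Scg2, which encode cargo of dense core vesicles, had log2 differences of -1.07 and -0.82. Of 11 tested immediate early genes, 6 were lower and none higher, against 1.21% and 0.589% of all genes. The 6 were Fos, Fosb, Egr1, Jun, Npas4 and Nr4a1, and the list median was -0.64. None of the 11 passed with DESeq2. The whole list of 18 immediate early genes summed to 2231 CPM in WT members and 1553 in Irx5KO members, against 3176 and 2492 in the named neurons. These genes respond to firing and to tissue dissociation, and the part of dissociation was not tested.

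The GABA receptor list went the other way, with 3 higher and none lower of 17 tested (list median 0.35). Of all genes, 0.589% were higher and 1.21% lower, the background also for the other counts of this paragraph. Over all genes, the 52 higher calls became 4 without members holding 3 markers of another class and 1 with no replicate block. At most 4 of the higher genes named in this comparison therefore kept their call in the first of these settings. Gabra2, a receptor subunit, was at 209 and 287 CPM against 132 and 177, a log2 difference of 0.64 ± 0.18 (edgeR adjusted p 0.0306). Gabrg1 was at 92.3 and 103 against 26.3 and 45.6, a log2 difference of 1.30 ± 0.31 (edgeR adjusted p 0.00452). Neither passed with DESeq2. Of 22 release genes, 4 were higher, Cplx1, Syn2 and Unc13c among them, and none lower (list median 0.39). None of the 22 passed with DESeq2. The channel genes Scn1a and Cacna2d2 were higher of 25 and none was lower, and none of the 25 passed with DESeq2. Chrm2, a muscarinic acetylcholine receptor gene, was higher at 30.2 and 37.3 against 4.39 and 5.26. Rgs16, a regulator of G protein signalling, stood at 103 and 80.6 against 1084 and 643.

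Peptide genes also divided the members among themselves. At least 1 UMI of a gene on the peptide list was found in 84.8% of WT members and 92.7% of Irx5KO members. These shares count the other secreted protein genes of the list too. A threshold of 5 UMIs of 1 listed gene, less open to free RNA, was met by 36.4% (28.8 to 44.6) and 44.8% (37.6 to 52.1). At that threshold Cartpt was found in 19 WT and 31 Irx5KO members, the most in each library. Tac1 was found in 7 and 23, Sst in 11 and 17, Gal in 4 and 12, Penk in 8 and 4, and Pomc in 4 and 3. A UMI of a peptide gene was also found in some non-neurons. After thinning to 1000 UMIs, Npy was found in 2.84% and 4.30% of members and in 2.65% and 5.42% of non-neurons, and 1 WT and 1 Irx5KO member held 32 and 39 Npy UMIs, or 76.2% and 48.8% of the members' total. Tac1 was found in 8.51% and 14.5% of thinned members and in 1.95% and 1.35% of thinned non-neurons, and Cartpt in 22.0% and 24.2% against 4.60% and 4.84%.

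**Figure D3:**
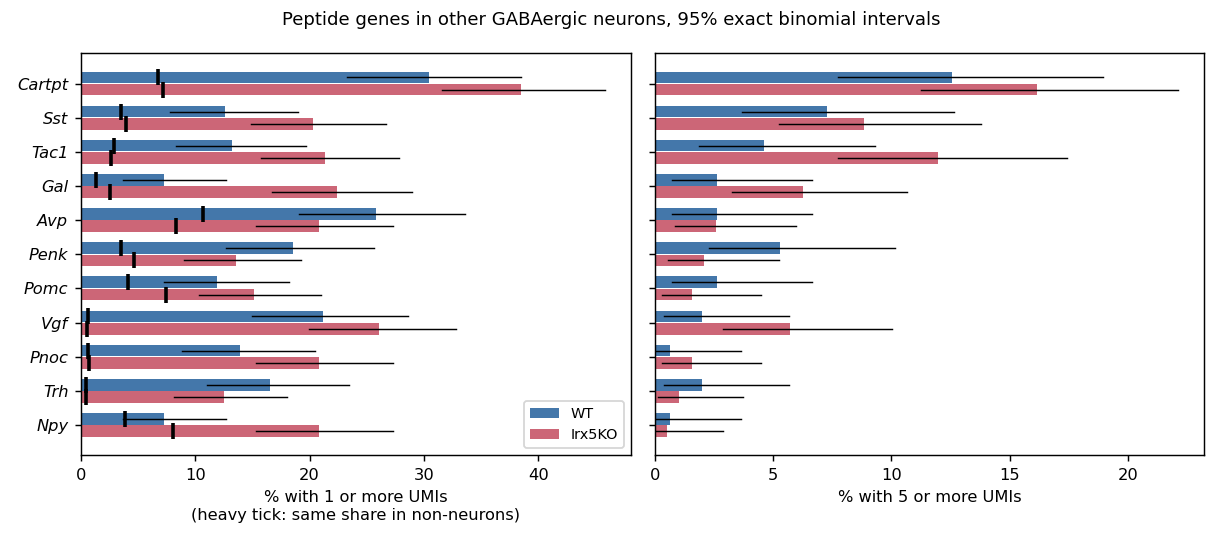
Share of members with at least 1 UMI (left) and at least 5 UMIs (right) of 11 peptide genes, WT in blue and Irx5KO in red, with 95% exact binomial intervals and, on the left, heavy ticks for the share in non-neurons. Cartpt is the most widely found on both sides, and Npy falls to 1 cell per library at 5 UMIs.

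Certain genes were found together in the same members in both libraries. The pairs were picked after their values were seen, so the shares are descriptions. Of the 34 members with Sox14, 15 from WT and 19 from Irx5KO, 26 also held Unc13c, a vesicle priming factor, or 76.5% against 6.80% of the other members. Tac1 was in 22 of the 34 (64.7% against 12.6%), Cbln4, a synapse organiser, in 19 (55.9% against 12.3%), Trh in 15 and Lef1, a Wnt pathway factor, in 14. The Sox14 cells were deeper, at a median of 5328 against 3235 UMIs. Among members with 3000 or more UMIs, Unc13c was in 20 of 25 Sox14 cells (80.0% against 9.47%) and Tac1 in 18 (72.0% against 14.2%), at median depths of 5989 and 5165 UMIs. In both libraries the share was higher in Sox14 cells for each of these 5 genes.

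A second set joined Six6 to Lhx1, Rora and Six3. Of 74 members with Six6, 38 held Six3 (51.4% against 21.9%), 20 held Lhx1 (27.0% against 6.69%) and 20 held Rora (27.0% against 9.67%). The part of depth in these Six6 shares was not tested. Another set joined Tbx3 to Nkx2-1, with 30 of 67 Tbx3 members against 7.97% of the others, and to Sstr1, a somatostatin receptor gene, with 24 of 67 against 9.78%. Median depth was 5379 UMIs in Tbx3 cells and 3022.5 in the others. Among members with 3000 or more UMIs, Nkx2-1 was in 26 of 54 Tbx3 cells (48.1% against 9.29%).

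**Figure D4:**
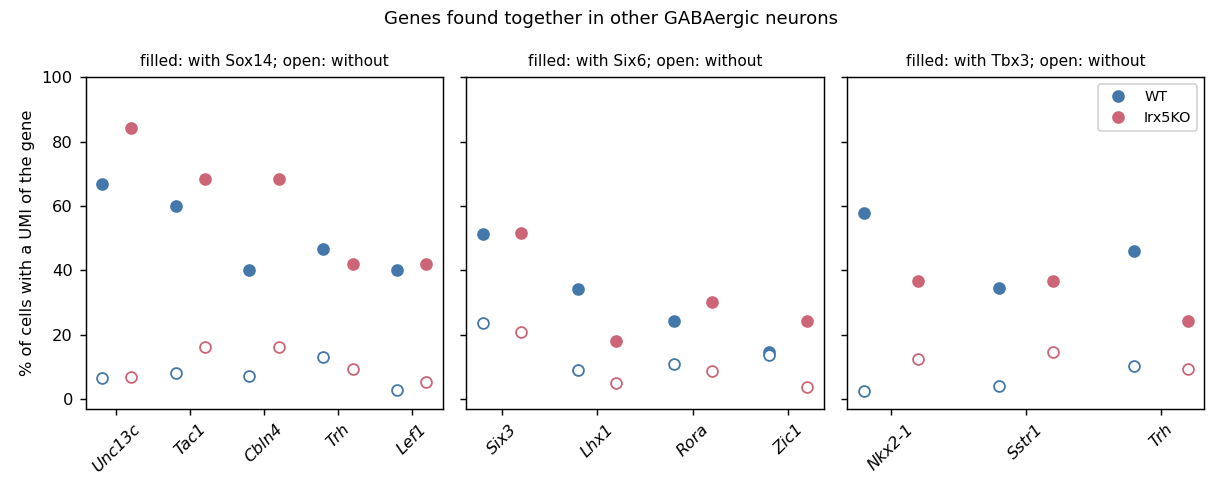
Share of members with a UMI of each gene on the x axis, among members with (filled) and without (open) Sox14, Six6 or Tbx3, in WT (blue) and Irx5KO (red). Filled points lie above open points of the same library for every pair, with Zic1 beside Six6 in WT the nearest at 6 of 41 cells against 13.6%.

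Clustering of the members (Leiden, on 1000 variable genes) gave 7 groups of 11 to 86 cells, which stay unnamed. The group sizes are not compared between genotypes, since genes that define the groups also differ between the libraries.

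The targeted gene gives no check of the genotype here: Irx5 had no UMI in members of either library, which allows up to 1.99% of WT and 1.56% of Irx5KO members with a UMI. Irx2, Irx3 and Irx6 were at 0 as well, and Irx1 had 1 UMI in each library. In non-neurons Irx5 stood at 6.93 CPM in WT and 0 in Irx5KO. Fto, the neighbouring gene, was found at 51.5 and 51.7 CPM.

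Between genotypes, 5694 genes had at least 50 UMIs over the members of both libraries. Of these, 635 were at least 1.5-fold higher in Irx5KO members (11.2%) and 482 at least 1.5-fold lower (8.47%), with a median log2 ratio of 0.044. With 1 library a genotype no test is possible, and the intervals below cover counting error only. Of the size calls 56.8% were higher in Irx5KO, and 45.9% after each cell was thinned to 1000 UMIs. For the Dlx genes the intervals that follow include 1: the ratio of Irx5KO to WT was 1.13 for Dlx1 (0.850 to 1.52), 1.08 for Dlx6 (0.752 to 1.58), 0.984 for Dlx2 (0.609 to 1.61) and 0.739 for Dlx5 (0.448 to 1.22), and none of the 4 was past the fold.

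Of 21 measured regional factors, 9 were at least 1.5-fold lower in Irx5KO members and none was higher, against 8.47% and 11.2% of all genes, with a list median of -0.37. They were Lhx1, Lmo4, Pou2f2, Rora, Six6, Sox14, Tcf7l2, Zfhx3 and Zic1. Zic1 was at 58.6 CPM in WT members and 21.6 CPM in those of Irx5KO, so its ratio was 0.370 (0.196 to 0.676). Six6 was at 156 and 91.4, a ratio of 0.585 (0.425 to 0.805), and Rora at 81.6 and 43.3, a ratio of 0.530 (0.333 to 0.838). A UMI of Zic1 was found in 21 WT and 14 Irx5KO members, 13.9% (8.82 to 20.5) and 7.29% (4.04 to 11.9), of Six6 in 41 and 33, 27.2% (20.2 to 35.0) and 17.2% (12.1 to 23.3), and of Rora in 22 and 24, 14.6% (9.36 to 21.2) and 12.5% (8.18 to 18.03). The direction of Zic1 did not hold after thinning to 1000 UMIs (log2 ratio 0.086), and Sox14 and Tcf7l2 turned when the groups within the members were weighted alike (0.17 and 0.054). With the groups weighted alike, Zic1 and Rora were no longer past the fold (log2 ratios of -0.48 and -0.41), and Six6 was (-0.83). Six6 and Rora kept their direction in all 9 alternatives run for them.

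Of 18 measured peptide genes, 5 were past the fold in each direction, against 11.2% of all genes higher and 8.47% lower. Penk had 145 UMIs in 28 WT members and 80 in 26 Irx5KO members, a ratio of 0.374 (0.281 to 0.495), and 0.378 without the richest cell of each library. Cartpt had a ratio of 0.394 (0.364 to 0.427), although more Irx5KO members held it. Sst had a ratio of 2.69 (2.44 to 2.96), and 2.08 without the richest cells. Gal was in 11 WT and 43 Irx5KO members, with a ratio of 1.79 (1.44 to 2.23) and 3.92 without the richest cells. Cck had a ratio of 0.169 (0.0893 to 0.302). Pnoc, also past the fold, turned to -0.20 (log2) when the groups were weighted alike. Of 20 release genes, 6 were higher and none lower, against the same 11.2% and 8.47%, with Cplx1, Cplx2, Rab3c, Rims1 and Rims2 among them. Rab3c had 88 and 260 UMIs, or 156 and 313 CPM (interval of the ratio 1.57 to 2.58). Sstr1, on 20 and 85 UMIs, had a ratio of 2.88 (1.75 to 4.95). Of 10 measured immediate early genes, 4 were lower and none was higher, against 8.47% and 11.2%, and 1 of the 4, Nr4a1, turned to 1.19 (log2) after thinning.

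The genes with the clearest differences by the naming rule were mostly not neuronal identity genes. Of the 12 named as higher, 11 share a 50-base stretch of their last 300 bases with another gene, and 10 are annotated as processed pseudogenes, such as Gm5620 (19 and 153 UMIs) and Gm5160 (69 and 331). The gene that does not share one was Gh, the pituitary growth hormone, with no UMI in WT members and 54 in 40 Irx5KO members. Of the 12 named as lower, 7 share such a stretch. Sez6, a neuronal membrane protein gene that does not, had 282 UMIs in 100 WT members and 66 in 51 Irx5KO members, a ratio of 0.159 (0.119 to 0.208). All 12 higher genes were past the fold in the same direction in other neurons and in non-neurons of the 2 libraries, and 11 of the 12 lower genes were. Sez6 had a ratio of 0.180 (0.152 to 0.212) in other neurons and 0.348 (0.174 to 0.648) in non-neurons. These differences were thus also present outside the members.

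**Figure D5:**
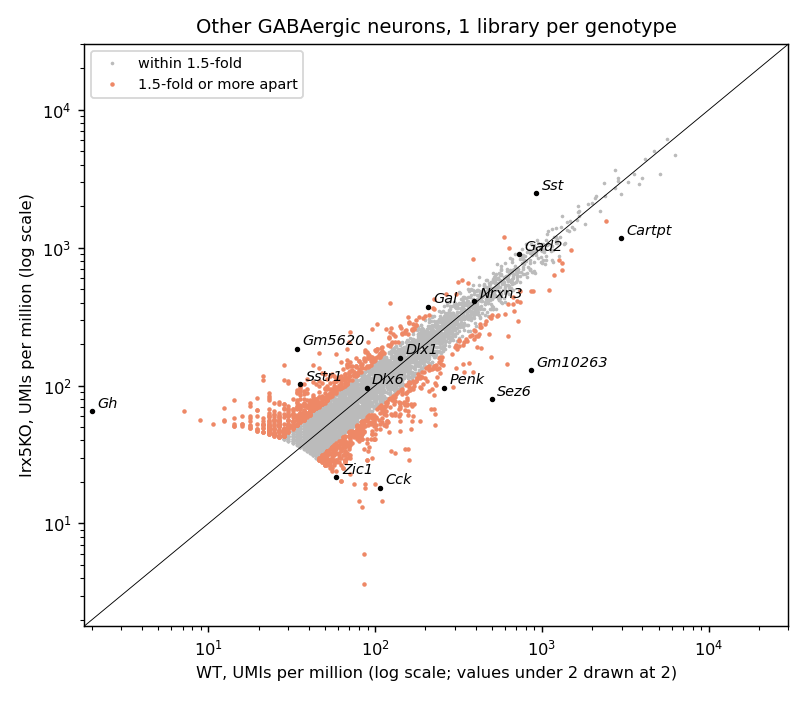
CPM of each gene with at least 50 UMIs in members, WT on the x axis and Irx5KO on the y axis, both logarithmic, with genes 1.5-fold or more apart in orange. Dlx1, Dlx6, Gad2 and Nrxn3 lie near the diagonal, Sez6 and Gm10263 lie below it, and Gh, drawn at the left edge, had no UMI in WT members.

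Markers of other cells were present in members at levels that differed between the libraries. Oligodendrocyte genes summed to 919 CPM in WT members and 313 in Irx5KO members, with all 7 genes above 0 in both, against 29081 and 20004 in non-neurons, and the richest WT member held 198 of the 518 UMIs. Haemoglobin genes summed to 122 and 24.1 CPM, and Gh and Prl to 0 and 108. The other marker lists summed to between 17.7 and 119 CPM in members, mural cells in WT being highest with 56 of 67 UMIs in 1 cell. At least 3 markers of another class were found in 17 of 151 WT members and 16 of 192 Irx5KO members. Apart from leaving out those members, the part of this RNA in the results was not tested.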

How the data were processed

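Drop-seq libraries of dissected arcuate nucleus and median eminence were analysed, 1 from WT and 1 from Irx5KO mice. The deposited WT table holds raw UMI counts, per the file headers and values. The authors deposited the merged and Irx5KO tables as natural log values: each UMI count was divided by its barcode's total, multiplied by 10000 and increased by 1 before the logarithm, which was worked out from the values. The submitters' processing notes name STAR 2.6.0b, Picard, bcl2fastq, Seurat 3 and the build mm10. Counts were recovered from the log values, and 100% of values above 0 were whole at a relative tolerance of 1e-06. None of 4275938 WT UMIs differed from the raw table.

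The members, gene lists and tests were chosen with earlier results of these data known. UMIs were summed per kind of cell and library and fitted with edgeR 4.0.16 (quasi-likelihood, TMM, library as a block, Benjamini-Hochberg adjustment, R 4.3.3), with DESeq2 1.42.0 as an alternative. The tables were planned as counts throughout, and the same test was used on the recovered counts. Tested on simulated data with 200 changed genes, the fit recovered 68% of 2-fold and 99% of 4-fold changes among 8192 genes against glutamatergic neurons, with 9 false calls of 176. Against the GABAergic neurons with a named gene it recovered 62% and 98% among 8407 genes, with 1 false call of 161. The simulation gave all genes 1 dispersion and the same fold in both libraries, and changed only genes past a minimum UMI count. Its rates therefore do not cover genes that rest on a few rich cells or differ between the libraries. Between genotypes, ratios of genes with at least 50 UMIs are given with exact 95% intervals, which cover counting error only. No doublet caller was run, and members with 3 markers of another class were left out as an alternative. Groups within the members came from scanpy 1.11.5 and leidenalg 0.10.2.

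Named genes were those of the rule, listed genes that passed a test or were most abundant, up to 12 per direction with the largest folds in each test, up to 12 per direction between genotypes ranked by the bound nearest to no difference, and the Irx family. Other names, such as Slc18a2 and the gene pairs, were chosen after their values were seen. Promoter sequences are from RefSeq, and gene positions from GENCODE on GRCm38. Some genes of the lists are not reported here.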

Additional observations from a re-analysis of the deposited data

Results flagged for a closer look

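For 6 of the named genes the 95% intervals of the ratio lay on opposite sides of 1 in the 2 libraries. Other genes differed in direction with an interval that includes 1 in a library. The difference between the libraries was not tested. The members' level over that in glutamatergic neurons was 0.577 in WT and 43.7 in Irx5KO for Sst, 0.0686 and 6.85 for Avp, and 0.0325 and 7.15 for Oxt. For Tac2, the neurokinin B precursor gene, it was 13.8 in WT and 0.301 in Irx5KO, and for Gal it was 3.53 and 0.81. Without the richest cell of each kind, Gal was higher in members of both libraries, at 2.02 and 1.45, and so was Sst, at 24.2 and 25.2. Avp, Oxt and Tac2 kept opposite directions without those cells. The level of Chgb, a granin gene, over that in GABAergic neurons with a named gene was 0.735 in WT and 1.15 in Irx5KO. In WT, 1 glutamatergic cell held 98.5% of the Sst UMIs of its kind.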

How the results depend on the processing

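With 1 library per genotype, depth and preparation limit every genotype value. The ratio of member shares among neurons kept its direction or stayed within its interval in every alternative run. Against glutamatergic neurons, 72 higher and 125 lower genes became 36 and 67 with all 3 GABA genes required, 10 and 12 with DESeq2, and 10 and 21 with no replicate block (the library not paired). Against GABAergic neurons with a named gene, 52 and 107 became 4 and 14 with DESeq2, 1 and 5 with no replicate block, and 4 and 24 without members holding 3 markers of another class; with all 3 GABA genes 29 were higher. Between genotypes, 635 and 482 became 373 and 292 with all 3 GABA genes, 112 and 132 after thinning, and 235 and 226 at 100 UMIs or more. Listed factors and peptides in at least 10% of members went from 37 to 10 after thinning. Leaving out either library gave log2 differences from glutamatergic neurons of -0.79 to 5.36 for Sst, -3.85 to 2.71 for Avp, -4.79 to 2.31 for Oxt and -0.17 to 2.18 for Sstr1. Requiring all 3 GABA genes turned Pomc to -0.65, and leaving out members with 3 other markers turned Cartpt against the named neurons to -0.38. Between genotypes (log2), thinning turned Zic1 to 0.086 and Nr4a1 to 1.19, weighting groups alike turned Sox14 to 0.17, Tcf7l2 to 0.054, Pnoc to -0.20 and Plcb1 to -0.14, and leaving out members with 3 other markers turned Tcf7l2 to 0.019. Without the richest cell, ratios to glutamatergic neurons turned to 24.2 for Sst in WT, and to 1.45 for Gal and 0.536 for Pomc in Irx5KO, and Pomc between genotypes to 0.65. Fewer cells or genes enter several of these settings; otherwise the cause was not tested. Of 1807 alternatives for single genes, 1501 stayed the same, 219 lost the call, 70 moved and 17 turned. Staying the same meant a kept direction and call only where a test was refitted. With a library left out it meant direction alone. For genotype ratios, richest-cell ratios and shares of gene pairs it meant a value within the main interval. Of the calls refitted with DESeq2, 30 were kept and 59 lost. With no replicate block, 29 were kept and 73 lost.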
